A study of Mus musculus with 20 samples.

Results

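The cell cycle and DNA replication genes described here are 40 genes chosen by symbol from the gene expression table, and all 40 were found among its 45306 genes. They comprise 10 cyclins, kinase, inhibitor and transcription factor genes (Cdk1, Ccna2, Ccnb1, Ccnb2, Ccnd1, Ccne1, Ccne2, E2f1, Foxm1 and Cdkn1a), 13 genes of DNA replication and nucleotide supply (Cdc6, Cdc45, Mcm2 to Mcm7, Pcna, Rrm1, Rrm2, Tyms and Tk1) and 17 genes of mitosis (Mki67, Top2a, Cdc20, Birc5, Aurka, Aurkb, Plk1, Bub1, Bub1b, Cenpa, Cenpe, Cenpf, Kif11, Kif20a, Nusap1, Tpx2 and Ube2c). Liver RNA was sequenced in 4 groups of 5 C57BL/6 mice, with 1 library taken as 1 mouse. Control mice were wild type and kept at 24 °C, CE mice were wild type and exposed to cold of 4 °C for 3 h per day over 3 weeks, Sirt2-/- mice carried a whole-body knockout of Sirt2, the NAD-dependent deacetylase, without cold, and Sirt2-/-/CE mice carried the knockout and were exposed to the same cold. The mice were 5 weeks old when the groups were formed. Mice are named below by group and label number, namely Control 1 to 5, CE 6 to 10, Sirt2-/- 11 to 15 and Sirt2-/-/CE 16 to 20.

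The libraries held 35499796 to 53917339 counts assigned to genes. Sirt2 itself lay between 40.2 and 56.2 CPM (counts scaled to the size of the library) in the 10 wild-type livers and between 16.9 and 27.5 CPM in the 10 knockout livers, so the genotype labels separated without overlap while Sirt2 transcript remained measurable. Of the cell type markers examined, those of hepatocytes had the highest summed level in every library, with Alb between 56699 and 140030 CPM. Of the 20 mice, 4 stood apart in circadian clock genes. A clock score, the mean of centred log2 CPM of Ciart, Nr1d2, Dbp, Per3 and Tef less that of Clock, Arntl and Npas2, was -4.52 in CE mouse 9, -5.72 and -6.48 in Sirt2-/- mice 14 and 15 and -4.69 in Sirt2-/-/CE mouse 19, against -0.81 to 3.36 in the other 16 mice. The clock score also differed by group, with means of 2.73 in Control, -0.24 in CE, -1.54 in Sirt2-/- and -0.95 in Sirt2-/-/CE. Every Control mouse (1.33 to 3.36) lay above every Sirt2-/-/CE mouse (at most 0.87), while the highest CE (2.42) and Sirt2-/- (2.17) mice lay within the range of Control. No label gives the hour of sampling.

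The cell cycle copies the genome in S phase and divides it in mitosis. D-type and E-type cyclins lead a cell out of rest, E2F transcription factors then switch on the replication machinery, and later the A-type and B-type cyclins with Cdk1 drive entry into mitosis. Most hepatocytes of an adult liver rest, so transcripts of these genes come from few cells, but the liver of a young mouse is still growing and its hepatocytes can return to the cycle after injury. Cdkn1a encodes p21, an inhibitor of cyclin-dependent kinases that is induced by p53 and by stress, and Ccnd1 encodes cyclin D1, which resting hepatocytes also express. Neither is restricted to dividing cells. In a bulk sample of liver, fewer dividing cells and less of a transcript in each dividing cell cannot be told apart.

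Genes expressed late in the cycle are known for promoters with CCAAT boxes, bound by NF-Y, and a CHR element, bound by the MuvB complex, whereas genes of the passage into S phase often hold E2F sites. Because members of the set varied together between mice, the 250 bases upstream of the transcription start were searched in RefSeq promoters of the mouse assembly GRCm38.p6, on both strands, for CCAAT, for TTTGAA or TTCGAA (CHR), and for TTTCCCGC, TTTCGCGC, TTTGCCGC or TTTGGCGC (E2F). A RefSeq promoter was matched for 32 of the 40 members, and not for Ccna2, Ccnd1, Ccne2, Foxm1, Mcm4, Aurkb, Kif20a and Tpx2. CCAAT was present for 24 of the 32 members (75%), against 37.5% of all 27025 genes with such a promoter. The CHR letters were present for 11 members (34.4%, against 19.6% of all genes) and the E2F letters for 5 (15.6%, against 2.16%). By role, 12 of 14 mitosis members held CCAAT, 6 held CHR and 0 held E2F letters, while of 12 replication members 9 held CCAAT, 3 CHR and 4 E2F. Of 6 cyclin and regulator members, 3 held CCAAT, 2 CHR and 1 E2F. These are matches of letters and not measured binding. The last 150 bases before the start of 7 members are shown 5' to 3' as examples, with matches on either strand in capitals (adjacent matches can overlap, as in Mcm6). Cdk1, Ccnb2, Top2a, Ube2c and Mki67 carry repeated CCAAT boxes or CHR letters, and Cdk1 carries E2F letters as well. Mcm5 and Mcm6 carry E2F letters beside repeated CCAAT boxes, so the examples do not part into separate patterns. The same 150 bases of Birc5 and Nusap1 of mitosis and of Tk1 and Tyms of replication held no match.
Cdk1 (chr10:69352913-69353062, reverse strand): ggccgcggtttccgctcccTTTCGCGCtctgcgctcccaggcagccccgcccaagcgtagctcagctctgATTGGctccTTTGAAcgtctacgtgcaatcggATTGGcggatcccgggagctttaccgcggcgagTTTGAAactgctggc
Ccnb2 (chr9:70421555-70421704, reverse strand): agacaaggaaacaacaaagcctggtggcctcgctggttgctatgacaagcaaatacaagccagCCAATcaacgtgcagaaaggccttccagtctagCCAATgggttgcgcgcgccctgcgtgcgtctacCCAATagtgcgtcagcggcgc
Top2a (chr11:99024190-99024339, reverse strand): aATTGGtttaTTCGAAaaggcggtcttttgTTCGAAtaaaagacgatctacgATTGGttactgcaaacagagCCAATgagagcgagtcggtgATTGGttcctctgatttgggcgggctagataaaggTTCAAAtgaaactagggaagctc
Ube2c (chr2:164769779-164769928, forward strand): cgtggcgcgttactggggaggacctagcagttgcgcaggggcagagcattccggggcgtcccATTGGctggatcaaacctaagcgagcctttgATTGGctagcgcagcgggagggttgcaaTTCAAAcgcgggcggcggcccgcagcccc
Mki67 (chr7:135716380-135716529, reverse strand): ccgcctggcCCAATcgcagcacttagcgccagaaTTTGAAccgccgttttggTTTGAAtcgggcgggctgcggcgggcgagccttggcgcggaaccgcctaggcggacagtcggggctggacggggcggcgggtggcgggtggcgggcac
Mcm5 (chr8:75109359-75109508, forward strand): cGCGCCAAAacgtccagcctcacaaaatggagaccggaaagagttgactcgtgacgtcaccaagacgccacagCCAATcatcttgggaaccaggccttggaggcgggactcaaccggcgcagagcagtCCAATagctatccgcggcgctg
Mcm6 (chr1:128359706-128359855, reverse strand): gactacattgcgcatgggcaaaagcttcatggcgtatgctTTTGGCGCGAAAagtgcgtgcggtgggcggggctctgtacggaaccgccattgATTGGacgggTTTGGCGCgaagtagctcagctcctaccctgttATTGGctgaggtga

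Levels in the liver were low for most of the set. On the length-adjusted FPKM scale as deposited, the mean over 20 mice was below 1 FPKM for 24 members, between 1 and 4 FPKM for 12, and above 5 FPKM for Pcna (17.3), Tk1 (16), Ccnd1 (10.8) and Cdkn1a (5.27). Within the cyclin and regulator group the highest mean was that of Ccnd1 and the lowest that of Foxm1 (0.165 FPKM), the transcription factor of late cell cycle genes. In the replication group Pcna, the sliding clamp of DNA polymerases, was highest and Cdc6, which loads the MCM helicase, lowest (0.0872 FPKM). In the mitosis group Cenpa, the histone variant of centromeres, was highest (2.10 FPKM) and Cenpf, a kinetochore protein, lowest (0.0570 FPKM). All 40 members passed the filter on low counts, 21 had at least 10 counts in every mouse, and 15 had 0 counts in at least 1 mouse, so differences among the lowest mice rest on few reads.

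No member passed the threshold of the main test, that of edgeR, in any comparison. With edgeR's quasi-likelihood test over 15616 genes and Benjamini-Hochberg adjustment, 0 of 40 members had an adjusted p under 0.05 in CE against Control (0.0064% of all genes tested did), in Sirt2-/- against Control (0.89% of all genes), in Sirt2-/-/CE against Sirt2-/- (0% of all genes), in Sirt2-/-/CE against CE (0.0128% of all genes), in Sirt2-/-/CE against Control (0.122% of all genes) and in the interaction of genotype and CE (0% of all genes). In Sirt2-/- against Control DESeq2 called 1 member, Plk1 (2.5% of members, against 3.97% of all genes by DESeq2), and limma voom with quality weights called 1 other, Mcm7 (2.5%, against 5.8% of all genes by limma voom). In the order of the other 5 tests above, DESeq2 called 0 members beside 1.31%, 0.0449%, 0.207%, 1.55% and 0.263% of all genes, and limma voom 0 members beside 3.46%, 0%, 0.0128%, 2.18% and 0%. At an unadjusted p under 0.05, edgeR counted 9 members in CE against Control (22.5% of members, against 10.7% of all genes), 6 in Sirt2-/- against Control (15%, against 14.9%), 1 in Sirt2-/-/CE against Sirt2-/- (2.5%, against 7.25%), 8 in Sirt2-/-/CE against CE (20%, against 6.09%), 1 in Sirt2-/-/CE against Control (2.5%, against 11.2%) and 1 in the interaction (2.5%, against 8.34%). With 1 mouse left out at a time, the count in CE against Control ranged from 2 (without Control mouse 1 or 2, with 7.89% and 8.82% of all genes in the same fits) to 14 (without CE mouse 8, with 9.88%). In Sirt2-/- against Control it ranged from 2 (without Sirt2-/- mouse 14 or 15, with 12.6% and 10.3%) to 8 (without CE mouse 8, with 14.9%). In Sirt2-/-/CE against CE it ranged from 0 (without CE mouse 6, with 6.61%) to 12 (without CE mouse 8, with 4.83%). In Sirt2-/-/CE against Sirt2-/- it ranged from 0 to 5, in Sirt2-/-/CE against Control from 0 to 3 and in the interaction from 0 to 2, where 3.83% to 8.97%, 7.77% to 12.2% and 6.14% to 10.5% of all genes passed. Throughout, edgeR called 0 members in each of the 20 fits. The comparisons share groups, so these counts are not independent of each other.

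The members varied widely between mice of 1 group. The biological coefficient of variation, edgeR's estimate of the spread between mice beyond counting error, had a median of 0.656 over the 40 members, against 0.301 over all 15616 genes. It was 0.822 in the mitosis group, 0.679 in the cyclin and regulator group and 0.405 in the replication group. The members ranged from 0.168 for Pcna to 1.80 for Bub1.

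To follow this spread, a core score was formed for each mouse as the mean of centred log2 CPM over the 38 members other than Ccnd1 and Cdkn1a. In Control mice 1 to 5 the score was -0.32, -0.16, 0.42, 0.28 and 0.63. In CE mice 6 to 10 it was 2.16, -0.46, -1.11, 1.19 and 0.16. In Sirt2-/- mice 11 to 15 it was -0.20, 0.22, -0.41, -1.34 and -1.75, and in Sirt2-/-/CE mice 16 to 20 it was 0.11, -0.03, 0.43, 0.21 and -0.03. The highest and second highest scores were thus both in the CE group, and so was the third lowest, while the lowest pair were Sirt2-/- mice. The group means were 0.17 ± 0.40 in Control, 0.39 ± 1.30 in CE, -0.70 ± 0.82 in Sirt2-/- and 0.14 ± 0.19 in Sirt2-/-/CE (SD, n = 5 each), and every pair of groups overlapped.

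**Figure D1:**
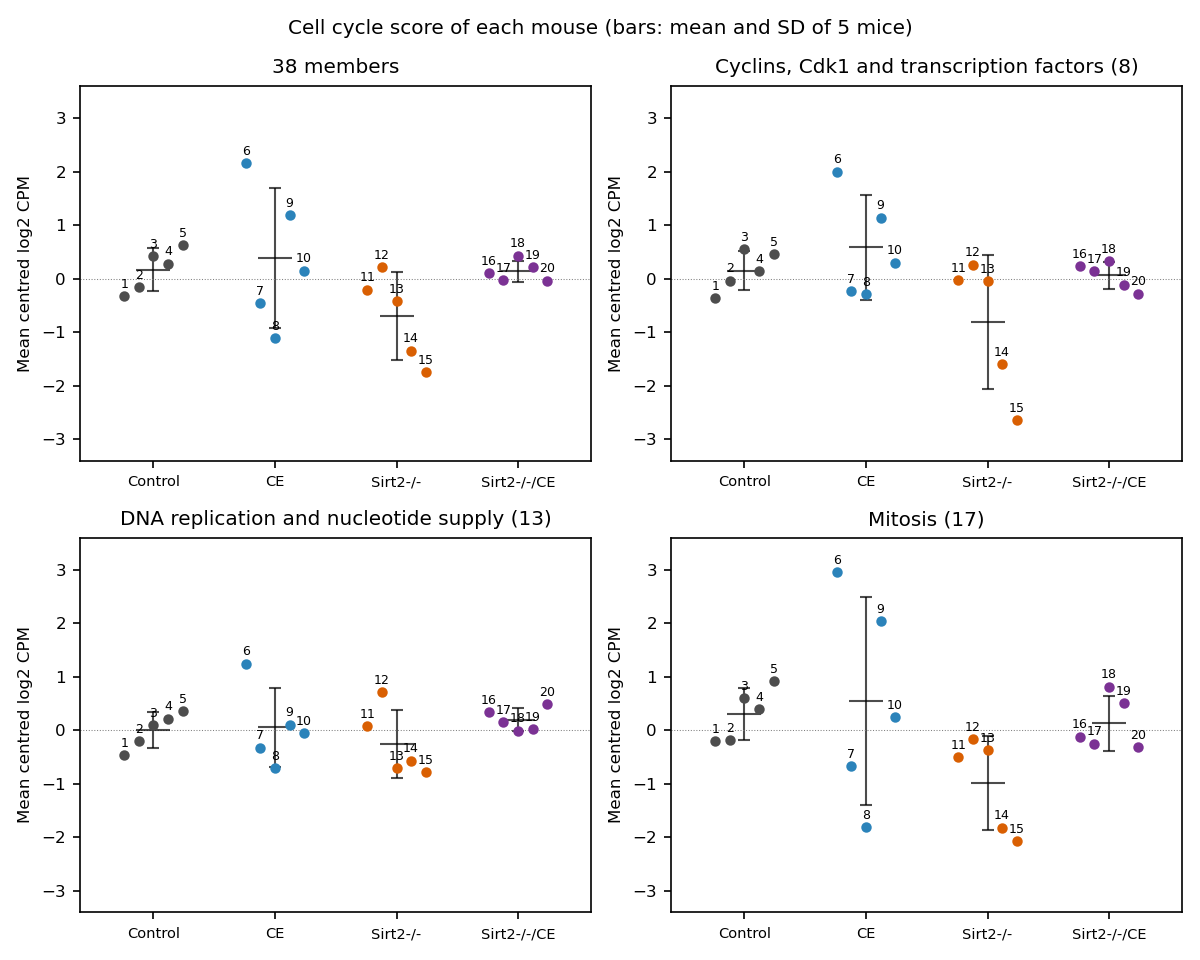
Score of each mouse (mean centred log2 CPM, vertical axis) by group, for the 38 core members and for each role, with points numbered by mouse and bars giving the mean and SD of 5 mice. CE mice 6 and 9 sit at 2.95 and 2.04 in the mitosis panel and CE mouse 8 at -1.81, while the replication panel spans -0.78 to 1.24.

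The difference in core score between CE and Control was 0.22 with all mice and -0.64 without CE mice 6 and 9, and between Sirt2-/-/CE and CE it was -0.25 with all mice and 0.61 without them. Both mice were chosen for this after their values were seen. For Sirt2-/- against Control the difference was -0.87 with all mice and -0.30 without Sirt2-/- mice 14 and 15, and for Sirt2-/-/CE against Sirt2-/- it was 0.84 and 0.27. Mice 14 and 15 too were chosen after their values were seen. Each of these scores is a description without a test. In Sirt2-/-/CE against Control the score differed by -0.03, less than the SD within either group.

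CE mouse 6 had the highest CPM of all 20 mice for 30 of the 38 core members, and CE mouse 9 was among the highest 2 mice for 22 of them. Sirt2-/- mouse 15 had 0 counts for 12 of the 38, and Sirt2-/- mouse 14 and CE mouse 8 for 7 each. The 17 mitosis members together gave 109 CPM in CE mouse 6 and 54.9 CPM in CE mouse 9, against 5.21 to 24.7 CPM in the other 18 mice. These sums rested on 4509 and 2658 counts in CE mice 6 and 9 and on 218 counts in Sirt2-/- mouse 15.

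**Figure D2:**
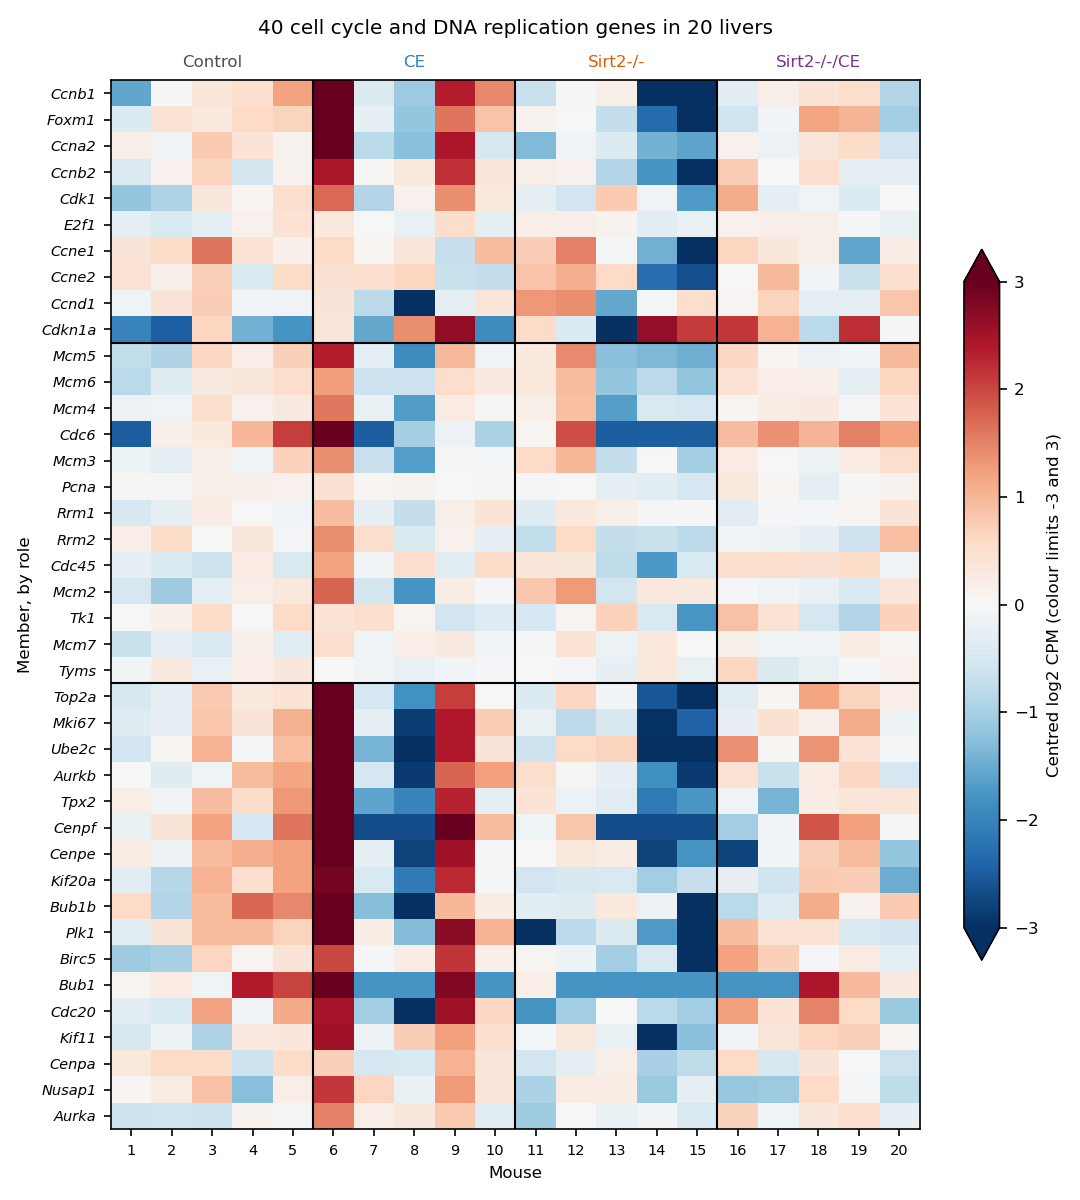
Centred log2 CPM of the 40 members (rows, by role and then by their correlation with the other members) in 20 mice (columns, by group), with red above and blue below the member's mean over all mice. CE mice 6 and 9 are red over most of the mitosis rows and CE mouse 8 and Sirt2-/- mice 14 and 15 blue, whereas Cdkn1a and Ccnd1 follow other patterns.

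Members of the mitosis group moved together from mouse to mouse. The correlation of each member's log2 CPM with the mean of the other core members over 20 mice, a description over libraries that share depth and scaling, had a median of 0.81 in the mitosis group, 0.76 in the cyclin and transcription factor genes and 0.61 in the replication group. It was highest for Top2a (r = 0.97), which untangles DNA before segregation, and for Mki67 (0.94), the marker of cycling cells. Ube2c, the conjugating enzyme of the anaphase-promoting complex, reached 0.93, as did Ccnb1 and Foxm1. At the other end stood Tyms (0.08), thymidylate synthase, and Mcm7 (0.17). Without CE mice 6 and 9 the values were 0.95 for Top2a, 0.89 for Mki67 and 0.91 for Ube2c, and 0.11 for Aurka, which had been 0.54.

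Mki67 (ENSMUSG00000031004, chr7:135689784-135716361, reverse strand in mm10, GENCODE vM21), which coats mitotic chromosomes, measured 1.15, 1.26, 2.71, 1.96 and 3.18 CPM in Control mice 1 to 5. In CE mice 6 to 10 it measured 22.9, 1.21, 0.170, 8.18 and 2.57 CPM. In Sirt2-/- mice 11 to 15 it measured 1.27, 0.846, 1.07, 0.150 and 0.239 CPM, and in Sirt2-/-/CE mice 16 to 20 it measured 1.27, 2.07, 1.68, 3.31 and 1.35 CPM. The CE group thus held both the highest livers of the study and 1 of the lowest, and all groups overlapped. The log2 fold change of Mki67 was 1.78 ± 0.78 in CE against Control (SE, adjusted p = 0.43 by edgeR) and -1.86 ± 0.79 in Sirt2-/-/CE against CE (adjusted p = 0.72). Without CE mice 6 and 9 these were -0.62 and 0.53.

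Top2a had a pattern like that of Mki67, with 1.01 to 2.49 CPM in Control mice, 16.8 and 6.13 CPM in CE mice 6 and 9, and 0.368 to 1.45 CPM in the other 3 CE mice. Its Sirt2-/- livers had 1.07, 2.23, 1.34, 0.200 and 0.0956 CPM, and its Sirt2-/-/CE livers 1.14, 1.48, 3.29, 2.29 and 1.64 CPM. Sirt2-/- mice 14 and 15 were again the lowest, and the other 3 Sirt2-/- mice lay within the range of Control. Cenpf was measured at 0.210, 0.344, 0.641, 0.165 and 0.873 CPM in Control, at 4.34, 0, 0, 3.16 and 0.532 CPM in CE, at 0.227, 0.487, 0, 0 and 0 CPM in Sirt2-/- and at 0.0993, 0.237, 1.06, 0.652 and 0.242 CPM in Sirt2-/-/CE mice. A value of 0 CPM there is 0 counts of a whole library, which allows up to 3 counts, and says only that the transcript was not detectable at this depth. Cenpa, by contrast, had no library near 0, with 3.06, 3.75, 3.63, 1.55 and 3.6 CPM in Control, 4.03, 1.71, 1.75, 5.06 and 3.13 CPM in CE, 1.66, 2.02, 2.76, 1.22 and 1.41 CPM in Sirt2-/- and 3.70, 1.74, 3.19, 2.41 and 1.55 CPM in Sirt2-/-/CE mice. The lowest pair for Cenpa were again Sirt2-/- mice 14 and 15.

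**Figure D3:**
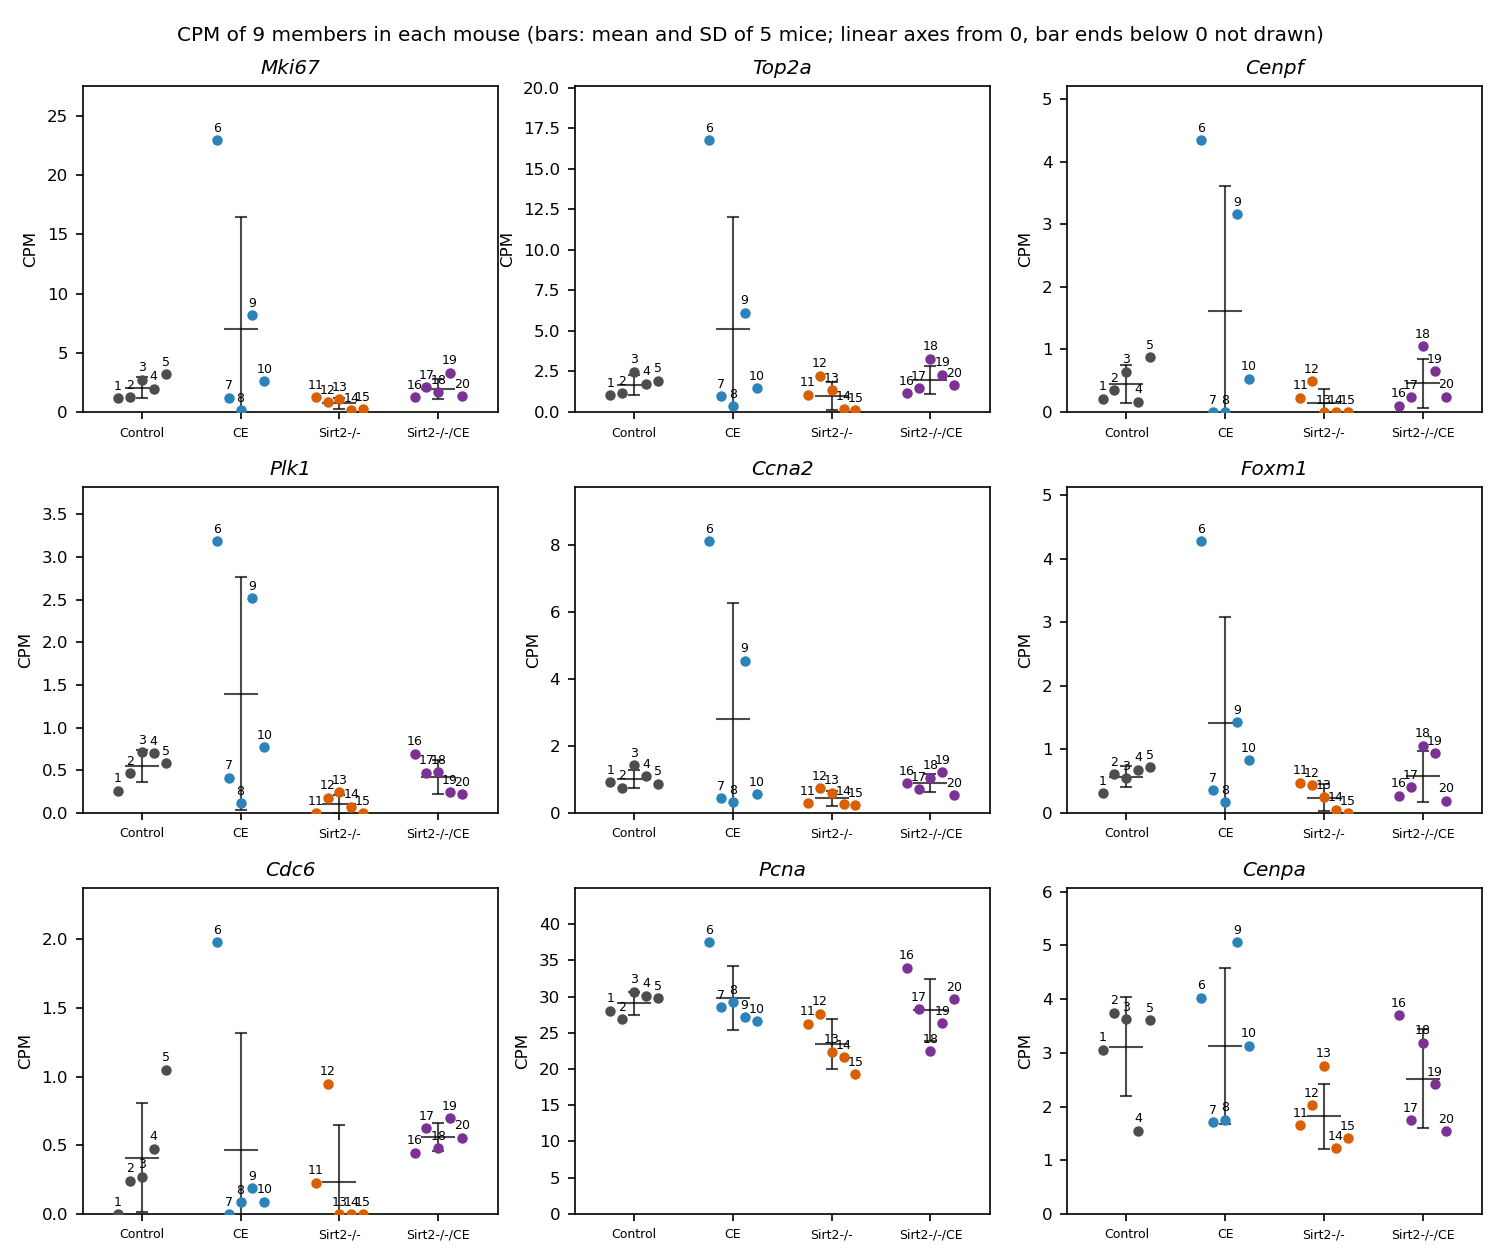
CPM of 9 members (vertical axes, linear) in each mouse by group, with bars at the mean and SD of 5 mice. CE mouse 6 is the highest point in the panels of Mki67 (22.9 CPM), Top2a (16.8 CPM), Cenpf, Plk1, Ccna2, Foxm1, Cdc6 and Pcna, and CE mouse 9 in that of Cenpa (5.06 CPM).

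In CE against Control the fold changes of the set were mostly above 0, with a median of 0.94 on the log2 scale over the 40 members against -0.01 over all genes, and 35 members higher and 5 lower. All 17 mitosis members had a higher mean in CE with all mice, but without CE mice 6 and 9 the sign turned for 13 of the 17 and for 24 of the 40 members, leaving 11 higher and 29 lower with a median of -0.32. The 9 members with an unadjusted p under 0.05 were all higher, and were Aurka, Mcm7, Ccnb1, Kif11, Mki67, Ccnb2, Ccna2, Cdkn1a and Cdc45. Aurka, the kinase of spindle poles, had the lowest adjusted p (log2 fold change 0.99 ± 0.31, adjusted p = 0.25 by edgeR), from 1.38 to 2.33 CPM in Control mice and 6.30, 2.51, 2.77, 3.82 and 1.72 CPM in CE mice. Ccnb1, the B-type cyclin of mitotic entry, had the largest fold change of the 9 (2.12 ± 0.91, adjusted p = 0.41), with 6.51 and 2.0 CPM in CE mice 6 and 9 and 0.141 to 1.03 CPM in the other CE mice, against 0.0874 to 0.873 CPM in Control. Without CE mice 6 and 9 the log2 fold changes of Aurka and Ccnb1 were 0.45 and 0.074. The fitted fold change follows mean counts, which 1 high library can carry, while the core score averages log values, and the median fold change of 0.94 stood beside a score difference of 0.22.

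In Sirt2-/- against Control the median log2 fold change was -0.54 over the members against 0.02 over all genes, with 9 members higher and 31 lower, and 16 of the 17 mitosis members lower. Without Sirt2-/- mice 14 and 15 the median was -0.14, with 14 members higher and 26 lower, 15 of the 17 mitosis members lower in both fits, and 0 members at an unadjusted p under 0.05 (8.12% of all genes). At an unadjusted p under 0.05 Plk1, Pcna, Cenpa and Bub1 were lower and Mcm7 and Cdkn1a higher. Plk1 (ENSMUSG00000030867, chr7:122159439-122169873, forward strand), the polo-like kinase of mitotic entry, measured 0.262, 0.466, 0.715, 0.702 and 0.582 CPM in Control mice and 0, 0.179, 0.246, 0.0749 and 0 CPM in Sirt2-/- mice. Its groups did not overlap, and its log2 fold change was -2.44 ± 0.85 with an adjusted p of 0.17 by edgeR and 0.047 by DESeq2. The Sirt2-/- values of Plk1 rested on 0 to 9 counts per library, and without Sirt2-/- mice 14 and 15 its log2 fold change was -1.94. In CE mice Plk1 measured 3.18, 0.413, 0.113, 2.52 and 0.769 CPM and in Sirt2-/-/CE mice 0.695, 0.473, 0.480, 0.241 and 0.217 CPM, so that the Sirt2-/-/CE livers overlapped both Control and Sirt2-/-. Against Sirt2-/- the log2 fold change of Plk1 in Sirt2-/-/CE mice was 2.08 ± 0.85 (adjusted p = 0.62 by edgeR).

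Ccna2, cyclin A2 of S phase and mitosis, was the other member without overlap between Control (0.926, 0.749, 1.43, 1.09 and 0.873 CPM) and Sirt2-/- (0.295, 0.743, 0.601, 0.275 and 0.239 CPM). The nearest values, 0.749 in Control mouse 2 and 0.743 in Sirt2-/- mouse 12, were all but equal. Its exons share 510 bases with Exosc9 on the other strand, and whether reads were counted by strand is not given in the sources used here. The absence of overlap held for 2 of 40 members (5% of them) and for 3.61% of all genes in this comparison, and for 0 members in the other 4 pairs of groups (0.743% to 3.03% of all genes). Bub1, a spindle checkpoint kinase, was at 0 counts in 4 of 5 Sirt2-/- mice and at 0.136 CPM in the remaining mouse, but also at 0 counts in 3 CE mice, so values of 0 occurred with and without the knockout.

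Within the knockout, the mean of cold-exposed mice was above that of Sirt2-/- mice for 34 of 40 members, and the median log2 fold change of Sirt2-/-/CE against Sirt2-/- was 0.52 against 0.01 over all genes (0.20 without Sirt2-/- mice 14 and 15, with 26 members higher). Between the cold-exposed groups the sign was opposite, with 33 members lower in Sirt2-/-/CE than in CE and a median of -0.57 against 0.02, whereas without CE mice 6 and 9 there were 32 higher and 8 lower with a median of 0.34. The 8 members at an unadjusted p under 0.05 there were all lower, and were Nusap1, Ccnb1, Ccna2, Mki67, Plk1, Tpx2, Cenpe and Kif20a. Nusap1, which bundles spindle microtubules and shares 172 exon bases with Oip5 on the other strand, had the lowest adjusted p of the 8 (log2 fold change -1.48 ± 0.51, adjusted p = 0.57 by edgeR). Of the 8, Ccna2, Mki67, Tpx2, Cenpe and Kif20a had the opposite sign without CE mice 6 and 9, with log2 fold changes of 0.98, 0.53, 1.22, 0.77 and 0.74. Kif20a shares 1271 exon bases with Cdc23 on the other strand, which limits what its counts show. Sirt2-/-/CE against Control gave 22 members higher and 18 lower with a median of 0.04, close to the 0.03 of all genes. The interaction of genotype and CE had a median fitted log2 fold change of -0.18 over the members, against 0.00 over all genes, while the core score, which averages log values, gave an interaction of the opposite sign with the same mice (0.62). Without CE mice 6 and 9 the median was 0.81 and edgeR called 0 members. These mice were left out for the high core score of the same members, which raises the interaction by construction. The p-values of that fit are therefore not counted. With all mice the lowest adjusted p was 0.55, for Mcm7.

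**Figure D4:**
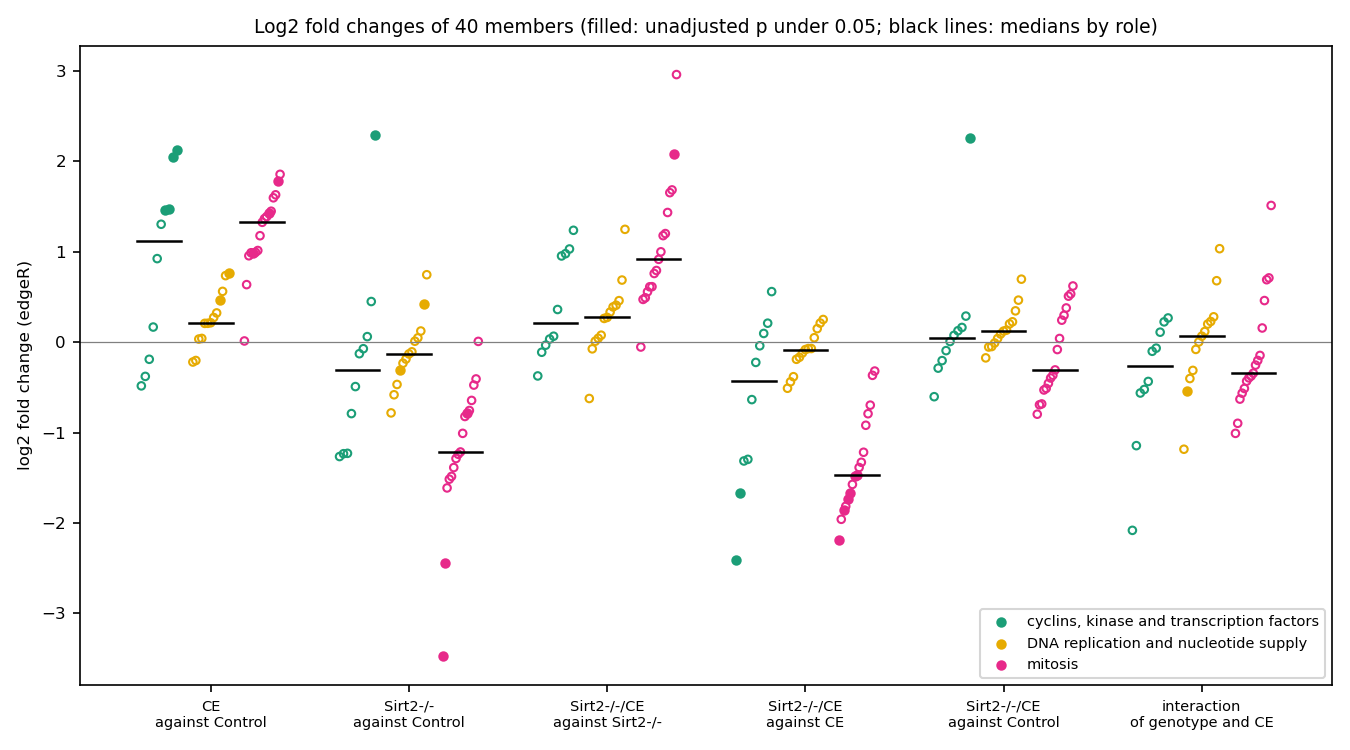
Log2 fold changes of the 40 members (vertical axis, edgeR) in the 5 pairs of groups and the interaction, coloured by role, with filled points at an unadjusted p under 0.05 and black lines at the median of each role. The mitosis medians are 1.33 in CE against Control, -1.22 in Sirt2-/- against Control and -1.47 in Sirt2-/-/CE against CE, and the replication medians lie between -0.13 and 0.27.

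Genes of DNA replication were steadier than those of mitosis. Pcna measured 28.1, 26.9, 30.7, 30.1 and 29.8 CPM in Control mice, 37.5, 28.6, 29.2, 27.2 and 26.6 CPM in CE mice, 26.3, 27.6, 22.4, 21.7 and 19.3 CPM in Sirt2-/- mice and 34.0, 28.2, 22.5, 26.3 and 29.6 CPM in Sirt2-/-/CE mice. CE mouse 6 was the highest and Sirt2-/- mice 14 and 15 the lowest, as for the mitosis genes, but the whole range was 19.3 to 37.5 CPM. The log2 fold change of Pcna in Sirt2-/- against Control was -0.31 ± 0.13 (adjusted p = 0.26 by edgeR). Cdc6 lay at the other end of the scale, with 0, 0.243, 0.271, 0.475 and 1.05 CPM in Control, 1.98, 0, 0.0848, 0.186 and 0.0887 CPM in CE, 0.227, 0.948, 0, 0 and 0 CPM in Sirt2-/- and 0.447, 0.624, 0.480, 0.70 and 0.556 CPM in Sirt2-/-/CE mice. Only in the Sirt2-/-/CE group was Cdc6 detected in all 5 mice within a narrow range, while it was at 0 counts in 5 mice of the other 3 groups.

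CE mouse 6 had the highest value of all mice for each of the 6 subunits of the MCM helicase, Mcm2 to Mcm7. Mcm5 followed the core score (r = 0.85), with 14.8 CPM in CE mouse 6 against 0.735 to 7.79 CPM elsewhere. Sirt2-/- mouse 12 had the second highest value of all mice for each of the 6 subunits, while its mitosis score was -0.17. Mcm7 had the lowest correlation of the 6 with the other core members, with 6.78, 8.99, 7.87, 12 and 8.55 CPM in Control, 15.3, 9.95, 12.5, 13.1 and 10.2 CPM in CE, 10.6, 14.4, 9.70, 13.5 and 11 CPM in Sirt2-/- and 12.3, 9.92, 10.1, 12.6 and 11.2 CPM in Sirt2-/-/CE mice. Its log2 fold change was 0.47 ± 0.17 in CE against Control (adjusted p = 0.30 by edgeR) and 0.42 ± 0.17 in Sirt2-/- against Control (adjusted p = 0.23 by edgeR and 0.043 by limma voom), with overlapping groups in both. Sirt2-/- mouse 14, among the lowest for mitosis genes, had one of the highest Mcm7 values. Mcm7 shares 321 exon bases with Ap4m1 and 64 with Cops6 on the other strand.

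Foxm1 behaved as the mitosis genes did, with 0.315 to 0.716 CPM in Control, 4.27, 0.358, 0.170, 1.42 and 0.828 CPM in CE, 0.477, 0.436, 0.246, 0.0499 and 0 CPM in Sirt2-/- and 0.273, 0.409, 1.06, 0.941 and 0.193 CPM in Sirt2-/-/CE mice. E2f1, the activator of S phase genes, was steadier, between 2.39 and 4.75 CPM in all 20 mice. Ccnd1 had the highest mean FPKM of the cyclins in the set and followed neither. Its exons share 1100 bases with LTO1 on the other strand. Ccnd1 (ENSMUSG00000070348, chr7:144929931-144939925, reverse strand) measured 32.1, 45.8, 58.3, 33.1 and 32.6 CPM in Control, 46.0, 20.4, 3.85, 29.3 and 44.8 CPM in CE, 87.0, 91.8, 12.1, 34.3 and 50.4 CPM in Sirt2-/- and 37.3, 55.4, 28.6, 29.1 and 62.3 CPM in Sirt2-/-/CE mice. CE mouse 8 was lowest and Sirt2-/- mice 11 and 12 highest, and the groups overlapped throughout. Over the 20 mice, log2 Ccnd1 had r = 0.84 (Spearman's rho 0.59) with the score of stellate cell markers, 0.69 (0.48) with that of endothelial markers, 0.54 (0.49) with the replication score and 0.26 (0.12) with the core score, and with group means removed r was 0.83, 0.65, 0.67 and 0.50. CE mouse 8, with 3.85 CPM of Ccnd1, also had the lowest summed stellate markers (34.7 CPM, against 89.2 to 262 CPM in the other mice), and the part of non-hepatocyte cells in its value was not tested.

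Cdkn1a (ENSMUSG00000023067, chr17:29090976-29100727, forward strand in mm10) measured 1.28, 0.931, 8.31, 1.90 and 1.52 CPM in Control mice, 6.83, 1.79, 13.9, 33.4 and 1.39 CPM in CE mice, 7.83, 3.97, 0.465, 32.9 and 22.7 CPM in Sirt2-/- mice and 22.9, 10.9, 3.0, 24.5 and 5.02 CPM in Sirt2-/-/CE mice. Both low and high livers occurred in the CE and Sirt2-/- groups, while Control had 1 liver above 2 CPM. The log2 fold changes of Cdkn1a against Control were 2.05 ± 0.96 in CE (adjusted p = 0.45 by edgeR), 2.29 ± 0.96 in Sirt2-/- (0.26) and 2.26 ± 0.96 in Sirt2-/-/CE (0.38). Control mouse 3 was high for its group, and without it they were 3.02, 3.27 and 3.23, while that of CE was 1.11 without CE mouse 9 and that of Sirt2-/- 1.66 without Sirt2-/- mouse 14. The 4 mice with the lowest clock scores, CE mouse 9, Sirt2-/- mice 14 and 15 and Sirt2-/-/CE mouse 19, measured 22.7 to 33.4 CPM of Cdkn1a against 0.465 to 22.9 CPM in the other 16, of which Sirt2-/-/CE mouse 16 was highest. With the clock score as a covariate, chosen after seeing the data, the 3 fold changes were 0.88, 0.38 and 1.05, and without Sirt2-/- mice 14 and 15 that of Sirt2-/- against Control was 0.57. The clock score differed between Control and the other groups, so its part and that of the group cannot be fully told apart. Over 20 mice log2 Cdkn1a had r = -0.10 with the core score, and r = -0.38 without CE mice 6 and 9, of which mouse 9 was high in both.

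Both E-type cyclins, which drive entry into S phase, were low in the same 4 mice. Ccne1 measured 0.826, 0.474, 0 and 0.434 CPM in CE mouse 9, Sirt2-/- mice 14 and 15 and Sirt2-/-/CE mouse 19, below all of the other 16 mice (1.31 to 4.24 CPM). Ccne2 measured 0.263 to 1.16 CPM in the same 4 mice against 1.12 to 4.02 CPM in the others, and Tk1, the thymidine kinase, 6.48 to 15.9 CPM against 15.1 to 40.5 CPM. Ccne1 was the single member of 40 (2.5%) without overlap between the 4 mice and the rest, against 0.615% of all genes tested, while Ccne2 and Tk1 overlapped narrowly. Mki67 did not separate them, with 0.150 to 8.18 CPM in the 4 mice and 0.170 to 22.9 CPM in the others. Because the 4 mice form a cluster apart on the clock score, no correlation over all mice is given. The 4 mice were grouped by the clock score, and Ccne1, Ccne2 and Tk1 chosen, after seeing the data, and no test was made. Ccne2 shares 609 exon bases with Ints8 on the other strand, and Tk1 shares 83 with Afmid.

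**Figure D5:**
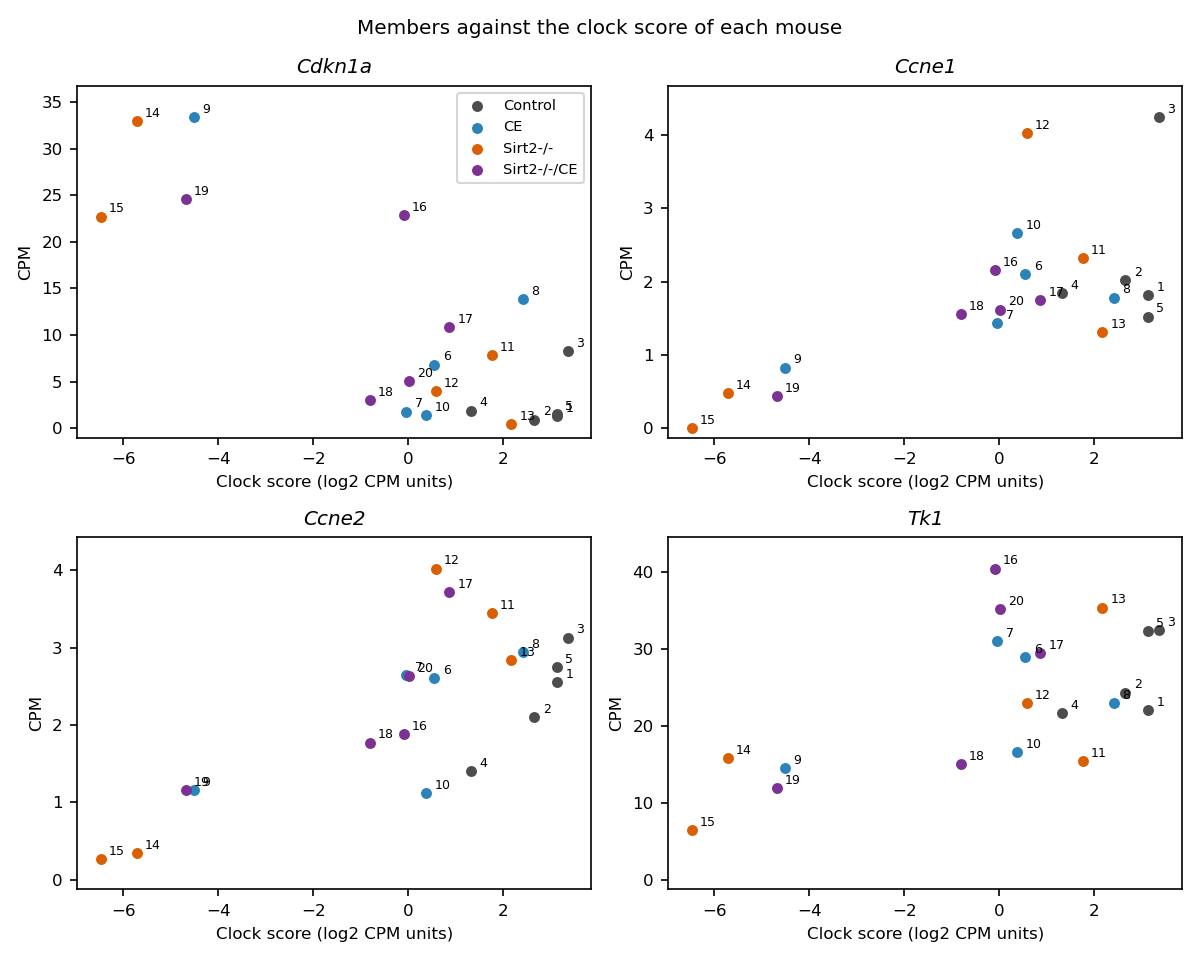
CPM of Cdkn1a, Ccne1, Ccne2 and Tk1 (vertical axes) against the clock score of each mouse (horizontal axis), coloured by group and numbered by mouse. Mice 9, 14, 15 and 19 lie apart at clock scores of -4.52 to -6.48, with Cdkn1a at 22.7 to 33.4 CPM and Ccne1 at 0 to 0.826 CPM.

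Genes of the same pathways outside the 40 were examined as lists, and 0 of them were called by edgeR in any of the 6 tests. Of 43 other replication genes tested, 20 were higher and 23 lower in CE against Control and 15 higher and 28 lower in Sirt2-/- against Control. Of 48 other mitotic genes, 45 were higher in CE against Control (median log2 fold change 0.84), 36 were lower in Sirt2-/- against Control (median -0.62), 42 were higher in Sirt2-/-/CE than in Sirt2-/- (0.80) and 39 were lower in Sirt2-/-/CE than in CE (-0.60), the same signs as most of the 17 mitosis members. Without CE mice 6 and 9 these genes too turned, with 21 higher and 27 lower in CE against Control (median -0.14) and 34 higher and 14 lower in Sirt2-/-/CE against CE (0.28). At an unadjusted p under 0.05 the mitotic genes numbered 9, 5, 5 and 5 in these 4 comparisons, beside the shares of all genes given above. The lowest adjusted p of any listed gene was that of Ect2, which directs cytokinesis, in Sirt2-/- against Control (log2 fold change -1.29 ± 0.35, adjusted p = 0.073 by edgeR). In CE against Control the mitotic genes with the lowest p were Ncaph (1.32 ± 0.48) and Aspm (1.92 ± 0.76), and among the other cyclins, kinases, inhibitors and pocket proteins they were E2f6 (0.56 ± 0.18) and Ccng2 (1.22 ± 0.44), with adjusted p by edgeR of 0.31, 0.36, 0.24 and 0.31. E2f6 was also higher in Sirt2-/- against Control (0.51 ± 0.18, adjusted p = 0.17 by edgeR). Gins3, a subunit of the replicative helicase, had a log2 fold change of 1.46 ± 0.45 in Sirt2-/- against Control (adjusted p = 0.11 by edgeR). Against Control it was also higher in CE (1.18 ± 0.45) and in Sirt2-/-/CE (1.12 ± 0.45), both with an adjusted p of 0.34. Rrm2b, the p53-inducible ribonucleotide reductase subunit, was lower against Control in all 3 other groups. The log2 fold change was -0.65 ± 0.18 in CE (adjusted p = 0.19 by edgeR), -0.52 ± 0.18 in Sirt2-/- (0.16) and -0.69 ± 0.18 in Sirt2-/-/CE (0.15). Of 34 other cyclins, kinases, inhibitors and pocket proteins, 20 were higher and 14 lower in CE against Control, and of 18 genes of the p53 response, 10 were higher and 8 lower. The lowest p of the latter in CE was that of Bbc3, a pro-apoptotic p53 target (1.28 ± 0.39, adjusted p = 0.23). In Sirt2-/- against Control 10 of the 18 p53 response genes were higher and 8 lower. There the p53 target Btg2 had a log2 fold change of -2.45 ± 0.74 (adjusted p = 0.11 by edgeR), opposite in sign to Cdkn1a. Aen, of the same list, had 0.57 ± 0.19 (adjusted p = 0.14), the same sign as Cdkn1a.

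Genes outside the set whose log2 CPM followed the core score most closely over 20 mice included Hmmr (r = 0.91), Smc2 (0.90), Mad2l1 (0.89), Uhrf1 (0.88), Dlgap5 (0.88), Pbk (0.87), Pole (0.87), Prc1 (0.87) and Ncapg (0.87). Hmmr, a spindle protein, measured 2.63 and 3.49 CPM in CE mice 6 and 9 against a median of 0.286 CPM over all mice. With group means removed the values of these 9 genes were 0.82 to 0.90, and without CE mice 6 and 9 they were 0.73 to 0.88. Uhrf1, which maintains DNA methylation at the replication fork, was higher in CE mouse 6 (9.94 CPM) than in CE mouse 9 (1.36 CPM), as were the replication members Mcm2 (11.4 and 3.92 CPM) and Pcna.

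Markers of other cell types were read beside the core score. Markers of neutrophils and their precursors, which divide in the marrow, were close to 0 in all libraries, with a summed level of 0.179 to 6.17 CPM over 9 genes, and Ly6g at 0 counts in all 20 mice. In CE mice 6 and 9 that sum was 0.70 and 1.18 CPM. Summed erythroid markers, mostly haemoglobin transcripts, were 382 CPM in CE mouse 6 and 419.5 CPM in CE mouse 9, within the 127 to 853 CPM of the other mice. Over 20 mice the core score had r = 0.52 with erythroid markers, 0.44 with stellate cell markers, 0.22 with Kupffer cell and macrophage markers, 0.09 with endothelial markers, -0.06 with hepatocyte markers and -0.15 with markers of juvenile liver. With group means removed these were 0.46, 0.61, 0.50, 0.46, -0.38 and -0.21. CE mouse 8, with a core score of -1.11, had the lowest summed Kupffer cell (149.9 CPM), endothelial (36.0 CPM) and stellate cell (34.7 CPM) markers of all 20 mice. Summed Kupffer cell markers were 283 CPM in CE mouse 6 and 531 CPM in CE mouse 9, within the 149.9 to 670.1 CPM of the other mice. The list was not uniform in CE mouse 6, where Csf1r (64.5 CPM) and Cd68 (19.2 CPM) were the highest of all 20 mice and the other 9 of 11 markers, Clec4f and Timd4 included, were below their median. Summed hepatocyte markers were 100437 and 96570 CPM in CE mice 6 and 9, within 79105 to 179418 CPM. The part of any of these cell types in the core score was not tested.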

How the data were processed

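Poly(A) RNA from 20 livers, 1 per mouse, was read by Illumina NovaSeq. The table deposited by the authors holds whole-read counts per gene and FPKM values that the authors computed from them. Genome build mm10 is named in the submitters' processing notes, and the aligner, counter and strand setting are not given in the sources used here. Groups followed the labels, and p-values measure the spread between these libraries. Lines that hold no gene (9) were dropped. Counts were tested with edgeR 4.0.16 (R 4.3.3; TMM, filterByExpr with a minimum count of 10, quasi-likelihood, Benjamini-Hochberg over 15616 genes, all 20 libraries in 1 fit). CPM use TMM-scaled library sizes, and log2 CPM a prior count of 2. FPKM served only to compare levels between genes. DESeq2 1.42.0, limma 3.58.1 and other scalings and filters were alternatives. The scripts were tested on simulated data. The lowest median chi-square over 190 pairs of libraries was 4.41, against 0.455 from sampling noise, so no library was a copy.

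The members and gene lists were chosen with earlier results of these data known. Values per mouse are given for Ccnd1, Cdkn1a, Mki67, Top2a and, in each role, the members with the highest and lowest mean FPKM. Plk1, Ccna2, Aurka, Ccnb1, Bub1, Mcm5, Mcm7, Ccne1, Ccne2 and Tk1 were added after their values were seen. Of the other pathway genes, those named are among the 2 with the lowest p of their list, and genes like the core score are from the 10 with the highest r, of which 1 is not reported here. Promoters are from RefSeq (GRCm38.p6).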

Additional observations from a re-analysis of the deposited data

Results flagged for a closer look

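In groups of 5 mice, a value was singled out where its gap to the nearest other mouse exceeded 0.71 of the group's range. This held for 14 of 176 groups examined, and for 0 groups of the core score and role scores, which average log values. The rule singles out about 1 in 20 groups by chance for independent normal values. CPM near 0 of genes that move together are neither, so the number of groups is not read against that rate. CE mouse 6 stood above the other CE mice for Cdc6 (1.98 CPM, against 0 to 0.186), Mcm2 (11.4 CPM, against 0.961 to 3.92), Mcm3 (11.4 CPM, against 1.33 to 4.23), Pcna (37.5 CPM, against 26.6 to 29.2), Bub1 (3.72 CPM, against 0 to 1.05) and Bub1b (7.50 CPM, against 0 to 1.24). These replication genes set it apart from CE mouse 9, which was high for mitosis genes too but not for Cdc6, Mcm2 or Pcna.

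Sirt2-/- mouse 12 stood above its group for Cdc6 (0.948 CPM, against 0 to 0.227) and Rrm2 (7.51 CPM, against 2.82 to 3.10). Sirt2-/- mouse 11 was the only mouse of its group with Bub1 reads (0.136 CPM, the others at 0), where the rule singles out any value above 0. Sirt2-/-/CE mouse 16 had 3.33 CPM of Cdk1 (others 1.11 to 1.52), and Sirt2-/-/CE mouse 20 had 9.25 CPM of Rrm2 (others 3.16 to 4.64) and 1.23 CPM of Cdc45, below the others (1.85 to 1.98). Control mouse 3 had 4.24 CPM of Ccne1 (others 1.52 to 2.02) and 8.31 CPM of Cdkn1a (others 0.931 to 1.90).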

How the results depend on the processing

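The number of members called by edgeR stayed at 0 in all 6 tests under upper-quartile scaling, library size only, both other filters and when each mouse was left out in turn (0 to 0). It also stayed at 0 in fits of the compared groups alone, which were run for the pairs of groups and not for the interaction. In Sirt2-/- against Control, DESeq2 called 1 member (Plk1, log2 fold change -2.47) beside 3.97% of all genes and limma voom 1 (Mcm7, 0.56) beside 5.8%, and the cause was not tested. With 1 mouse left out, the core score difference ranged from -0.23 (without CE mouse 6) to 0.59 (without CE mouse 8) in CE against Control, from -1.10 to -0.60 in Sirt2-/- against Control, from 0.57 to 1.06 in Sirt2-/-/CE against Sirt2-/-, from -0.62 to 0.20 in Sirt2-/-/CE against CE, from -0.15 to 0.08 in Sirt2-/-/CE against Control and from 0.24 to 1.06 in the interaction. Without CE mice 6 and 9, chosen after seeing the data, it was -0.64 in CE against Control, 0.61 in Sirt2-/-/CE against CE and 1.48 in the interaction. The same omission turned the sign of 24 of the 40 members' log2 fold changes in CE against Control, 27 in Sirt2-/-/CE against CE and 19 in the interaction. Leaving out Sirt2-/- mice 14 and 15, also chosen after seeing the data, turned 7 in Sirt2-/- against Control, 10 in Sirt2-/-/CE against Sirt2-/- and 8 in the interaction. Of the members at an unadjusted p under 0.05, omitting CE mice 6 and 9 turned Ccna2 (-1.19) and Mki67 (-0.62) in CE against Control, and of Ccna2 (0.98), Mki67 (0.53), Cenpe (0.77), Kif20a (0.74) and Tpx2 (1.22) in Sirt2-/-/CE against CE. No paired analysis was possible because the mice carry numbers 1 to 20 that no pair of groups shares. At fewer than 10 counts in a library, as for Plk1, Bub1, Cenpf and Cdc6 in some mice, depth limits what can be told apart. Transcripts of Cenpf, Tyms, Cenpa and Ccnb1 share stretches of at least 150 bases, at 95% identity or more, with 27, 28, 9 and 4 other genes. The part of reads from such stretches in their counts was not tested.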
